A study of Mus musculus with 22 samples.

Results

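The SLAM family receptors are cell-surface proteins of the immunoglobulin superfamily carried by blood cells, and 8 of their genes were followed here: Ly9, Slamf7, Cd48, Slamf1, Cd84, Slamf6, Slamf9 and Slamf8. They were chosen by gene symbol. All 8 were listed in each of the 3 count tables, among 23912 genes in the normoxia table, 33265 in the hypoxia table and 24251 in the tumor table. The study compared mice lacking VISTA, an immune checkpoint protein encoded by Vsir, with wild-type (WT) mice, all recorded as C57BL/6N. The labels name the knockout (KO) without describing the allele. The groups were bone marrow myeloid cells in normoxia at day 4 (4 WT and 4 KO libraries, from progenitors grown with GM-CSF and IL-6), bone marrow myeloid cells in hypoxia for 24 hours (4 WT and 4 KO), and MC38 tumor samples at day 7 (3 WT and 3 KO). The labels call the tumor samples tissue while the name of their count table speaks of myeloid-derived suppressor cells, and whether cells were purified was not given in the sources used here, so tumor levels may be those of whole tissue or of sorted cells. The MC38 line comes from a colon tumor of the mouse, and KO means loss of VISTA in each experiment.

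Most SLAM receptors bind a copy of themselves on a neighbouring cell, so that leukocytes recognise each other as both ligand and receptor. Ly9, Slamf7, Slamf1, Cd84 and Slamf6 encode receptors whose tails hold tyrosine motifs that recruit small adaptors, SAP (Sh2d1a) or EAT-2 (Sh2d1b1 and its copy Sh2d1b2). SLAMF7 signals through EAT-2 and not SAP, and with no adaptor bound these motifs can recruit inhibitory phosphatases. CD48 has no tail, being held by a lipid anchor, and serves as the ligand of CD244 (Cd244a) and CD2. SLAMF8 and SLAMF9 have short tails without such motifs and are known from macrophages and dendritic cells, where SLAMF8 restrains the NADPH oxidase whose catalytic subunit is encoded by Cybb. In macrophages SLAMF7 can work together with the integrin Mac-1 (Itgam), and SLAMF1 binds the Vps34 complex (Pik3c3, Pik3r4, Becn1, Uvrag) during the uptake of bacteria.

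The 8 genes lie together on chromosome 1 (GRCm38, GENCODE M21 annotation), between 171588624 and 172590568, a span of 1001.9 kb. In order they are Ly9 (171588624 to 171607410, minus strand), Slamf7 (171632403 to 171653035, minus), Cd48 (171682009 to 171705258, plus), Slamf1 (171767127 to 171801184, plus), Cd84 (171839697 to 171890718, plus) and Slamf6 (171917515 to 171953170, plus). A gap of 522.2 kb then separates Slamf6 from Slamf9 (172475358 to 172478575, plus) and Slamf8 (172581758 to 172590568, minus). Ly9 lies inside the span of Cd244a (171559193 to 171609746, plus), with 0 exon bases shared. In Slamf7, 423 exon bases (9.24% of its exons) are shared with the antisense gene Gm37787. The strand setting of the counting was not given in the sources used here, so reads from that stretch cannot be assigned to one of the pair. Gm37787 itself stayed at 0.738 to 1.24 CPM in the tumor WT libraries and at most at 0.0961 CPM in the hypoxia WT libraries, where Slamf7 stood at 142 to 160 and 6.36 to 12.4 CPM.

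Promoter sequences (250 bases before to 50 after the start site, RefSeq, GRCm38.p6) were held for 7 of the 8 genes and not for Ly9. Positions below are counted from the RefSeq start site, which can differ from that of GENCODE. The Slamf7 window lies inside the GENCODE gene, which starts at 171653035 on the minus strand. Slamf7 and Cd48 are shown because both were lower in the KO in all 3 experiments, Slamf1 because it was the single member called higher in the KO in hypoxia, and Slamf8 because it had few reads in the cultures and many in the tumor. Each is written along its own strand, and capitals mark matches to 7 motifs searched on both strands.
Slamf7 (chr1:171648950-171649249, minus strand): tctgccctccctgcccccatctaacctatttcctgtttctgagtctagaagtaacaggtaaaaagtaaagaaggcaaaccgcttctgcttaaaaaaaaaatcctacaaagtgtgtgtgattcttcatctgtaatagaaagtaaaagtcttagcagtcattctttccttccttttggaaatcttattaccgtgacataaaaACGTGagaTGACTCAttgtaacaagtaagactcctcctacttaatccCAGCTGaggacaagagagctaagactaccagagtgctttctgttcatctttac
Cd48 (chr1:171681742-171682041, plus strand): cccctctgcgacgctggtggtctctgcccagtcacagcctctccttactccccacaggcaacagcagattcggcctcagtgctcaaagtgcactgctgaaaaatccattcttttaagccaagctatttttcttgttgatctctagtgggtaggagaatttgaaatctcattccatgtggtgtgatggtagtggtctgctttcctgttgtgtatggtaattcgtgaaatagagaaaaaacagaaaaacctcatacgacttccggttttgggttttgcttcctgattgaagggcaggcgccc
Slamf1 (chr1:171766882-171767181, plus strand): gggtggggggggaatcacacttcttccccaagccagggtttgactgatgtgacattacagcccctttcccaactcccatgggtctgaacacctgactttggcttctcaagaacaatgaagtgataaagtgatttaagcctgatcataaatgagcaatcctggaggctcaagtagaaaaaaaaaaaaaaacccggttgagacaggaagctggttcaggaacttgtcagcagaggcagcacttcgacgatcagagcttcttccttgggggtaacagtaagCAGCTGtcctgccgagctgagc
Slamf8 (chr1:172590519-172590818, minus strand): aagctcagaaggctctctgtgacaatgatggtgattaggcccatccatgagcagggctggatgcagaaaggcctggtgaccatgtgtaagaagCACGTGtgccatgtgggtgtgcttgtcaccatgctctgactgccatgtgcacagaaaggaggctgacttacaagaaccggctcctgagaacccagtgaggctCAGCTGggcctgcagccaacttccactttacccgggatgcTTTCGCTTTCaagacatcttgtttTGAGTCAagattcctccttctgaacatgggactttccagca

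The motifs were the STAT motif TTCNNNGAA (in 8.3% of 32851 promoters of this length), the PU.1 motif GAGGAAGT (3.2%), the hypoxia response core ACGTG (19.6%), the interferon response motif known as ISRE (3.44%), the AP-1 motif TGANTCA (7.81%), the C/EBP motif TTGCNNAA (10.8%) and the E-box CAGCTG (16.3%). In the Slamf7 promoter the capitals are a hypoxia core from -50 to -46, an AP-1 match from -42 to -36 and an E-box from -3 to 2, counted from the start site. The Slamf8 promoter held the palindrome CACGTG from -157 to -152, in which the hypoxia core matched on both strands. It also held a match to the E-box CAGCTG from -55 to -50. An interferon motif lay on the opposite strand from -15 to -6 and an AP-1 match from 9 to 15. Slamf1 had an E-box from 28 to 33, and these letters were not in the Cd48 window. A match describes the letters and is not evidence of binding.

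Libraries held 23409142 to 23722932 counts in normoxia, 30839108 to 31385825 in hypoxia and 19119985 to 31716200 in the tumor experiment, where each KO library was shallower than each WT library. Levels are given as CPM, read counts scaled within each experiment to library size adjusted by its TMM factor (edgeR). Vsir, the targeted gene, was at 651 to 856 CPM in normoxia WT and 139 to 242 in KO, at 512 to 611 and 113 to 163 in hypoxia, and at 427 to 480 and 113 to 128 in the tumor, so each KO library was below each WT library. In normoxia, WT replicate 3 (10.57 on the first principal component) and KO replicate 4 (-50.21) stood apart from the other WT (24.16 to 34.67) and KO libraries (-24.02 to -6.994). The cultures carried neutrophil markers at summed levels of 23700 to 62600 CPM, against 356 to 499 in the tumor samples. Tumor samples carried the myeloid gene Lyz2 at 9350 to 19500 CPM and 6 epithelial markers at a summed 16.7 to 34.7 CPM in WT and 24.9 to 58.0 in KO, of which Cdh1 was the highest at up to 46.9 CPM. The same 6 epithelial markers summed to 44.5 to 98.1 CPM in normoxia and 108 to 288 in hypoxia, so their sum does not measure tumor cell content. Stroma and endothelium markers summed to 366 to 451 CPM in tumor WT and 455 to 572 in tumor KO. In bulk RNA, fewer cells of a type and less RNA per cell cannot be told apart.

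Per kilobase of exon, on a scale common to all 22 libraries, Cd48 had the highest level of the 8 genes in 5 of the 6 groups, from 25.7 ± 0.932 CPM per kb (SD, n = 4) in normoxia KO to 108 ± 0.771 (SD, n = 3) in tumor WT. The exception was hypoxia KO, with Cd84 at 24.4 ± 3.18 and Cd48 at 22.7 ± 1.6 CPM per kb (SD, n = 4). In normoxia KO Cd84 stood at 23.2 ± 9.37 (SD, n = 4). The spreads of Cd48 and Cd84 overlapped in both KO culture groups, so their order there is not settled. Slamf9 reached 5.15 to 9.38 CPM per kb on average in the cultures. Slamf1, Slamf6, Slamf7 and Slamf8 took the last 4 places in each culture group, with group means of at most 0.741, 0.133, 1.82 and 0.122 CPM per kb. In tumor WT, Slamf8 rose to second place at 68.3 ± 3.6 CPM per kb (SD, n = 3), while Slamf1 was the lowest gene there at 0.113 ± 0.00629.

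**Figure D1:**
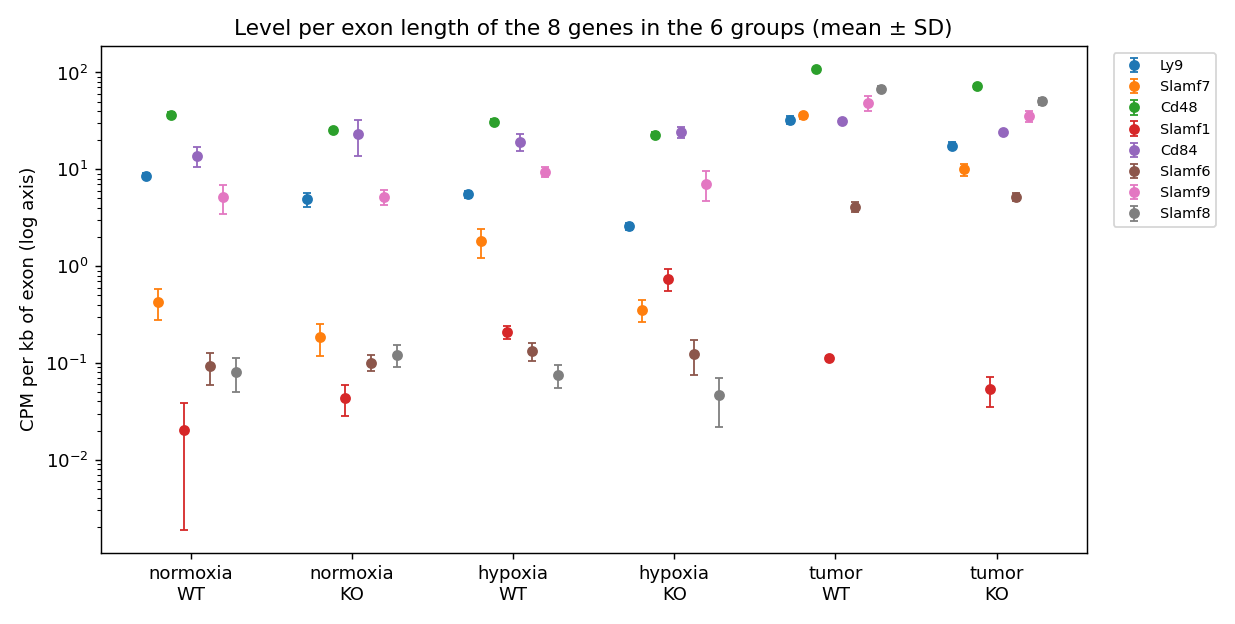
Mean CPM per kb of exon (log axis, bars show the SD over 4 libraries, or 3 in the tumor groups) of the 8 genes in the 6 groups, on the scale common to 22 libraries. Cd48 has the highest mean in every group except hypoxia KO, but its bar overlaps that of Cd84 in normoxia KO. Slamf8 lies at most at 0.122 in the cultures and at 50.2 or more in the tumor groups.

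Loss of VISTA was accompanied by lower levels of the same 3 SLAM genes in all 3 experiments: Slamf7, a self-binding receptor of natural killer cells and macrophages, Ly9, a self-binding receptor of lymphoid and myeloid cells, and Cd48, the ligand of CD244. Slamf7 was 2.34-fold lower in normoxia, 5.15-fold lower in hypoxia and 3.52-fold lower in the tumor. Ly9 was 1.77-fold, 2.16-fold and 1.8-fold lower, and Cd48 1.43-fold, 1.38-fold and 1.46-fold lower. Of the 12461 genes tested in all 3 comparisons, 54 (0.433%) were called lower in each, where called means an edgeR adjusted p under 0.05 over all genes tested. Of the 6 members tested in all 3, these 3 were called lower in each.

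In normoxia 3 of the 6 tested members were called lower and 0 higher, beside 4.17% of all 13950 genes called lower and 7.13% called higher. At an unadjusted p under 0.05 (edgeR) there were 4 of 6, the 3 called members lower and Cd84 higher in the KO. The median log2 fold change was -0.26 over the 6 members and -0.02 over all genes. Slamf1 and Slamf8 had too few counts to be tested.

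In hypoxia 3 of the 7 tested members were called lower and 1 higher, beside 17.6% of all 15018 genes called lower and 17.4% called higher. The median was -0.4 over the 7 members and -0.01 over all genes. Slamf8 had too few counts to be tested.

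In the tumor 5 of the 8 members were called lower and 1 higher, beside 3.04% of all 14370 genes called lower and 3.28% called higher. The median was -0.48 over the members and 0.01 over all genes.

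**Figure D2:**
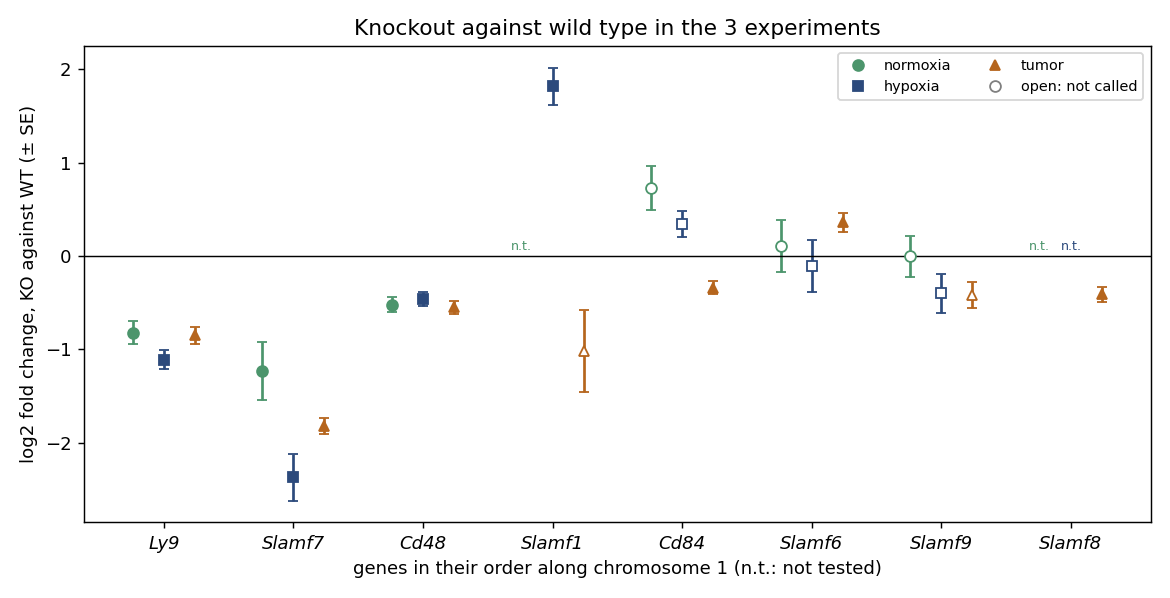
Log2 fold change of KO against WT (± SE) for each gene in normoxia (4 against 4 libraries), hypoxia (4 against 4) and tumor (3 against 3), with filled symbols for called genes. Ly9, Slamf7 and Cd48 are filled and below 0 in each experiment, and Slamf1 in hypoxia is the highest point at 1.82.

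Slamf7 in normoxia stood at 2.07, 1.23, 3.01 and 2.03 CPM in the 4 WT libraries and at 0.806, 0.839, 0.581 and 1.33 CPM in the 4 KO libraries. The groups overlapped, since KO replicate 4 lay above WT replicate 2. The log2 fold change was -1.23 ± 0.31 (SE, edgeR adjusted p = 0.0295). These levels rested on 13 to 71 reads per library, and the call was lost in 4 of 8 fits that left out 1 library (KO replicate 1 or 3, WT replicate 1 or 4), with edgeR adjusted p up to 0.0845.

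In hypoxia Slamf7 stood at 7.47, 12.4, 6.36 and 6.74 CPM in WT and at 1.87, 1.58, 1.93 and 1.01 CPM in KO. Every KO library lay below every WT library, with a log2 fold change of -2.37 ± 0.25 (SE, edgeR adjusted p = 5.63e-05). In the tumor it stood at 157, 160 and 142 CPM in WT and at 46.8, 46.3 and 37.3 CPM in KO, with no overlap. That log2 fold change was -1.82 ± 0.09 (SE, edgeR adjusted p = 1.99e-07), rank 14 of the 14370 genes by p.

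Ly9 in normoxia stood at 31.3, 31.1, 30.4 and 27.8 CPM in WT and at 18.4, 19, 17.9 and 13 CPM in KO. The groups did not overlap, and KO replicate 4 was the lowest library. The log2 fold change was -0.82 ± 0.12 (SE, edgeR adjusted p = 0.00299). In hypoxia Ly9 stood at 18.1, 18.9, 19.5 and 16.1 CPM in WT and at 7.87, 8.14, 9.58 and 7.97 CPM in KO. Here too the groups were separate, with a log2 fold change of -1.11 ± 0.1 (SE, edgeR adjusted p = 1.35e-05). In the tumor the WT libraries had 89.4, 107 and 102 CPM and the KO libraries 59.2, 55.2 and 51.5 CPM. They did not overlap, and the log2 fold change was -0.85 ± 0.09 (SE, edgeR adjusted p = 0.000101).

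The ligand gene Cd48 was lower in every KO library. In normoxia it stood at 49.0, 43.3, 48.6 and 42.9 CPM in WT and at 31.8, 33.4, 30.7 and 32.7 CPM in KO, with no overlap and a log2 fold change of -0.52 ± 0.08 (SE, edgeR adjusted p = 0.00435). In hypoxia it stood at 35.5, 37.1, 38.9 and 34.5 CPM in WT and at 29.0, 26.8, 25.9 and 24.4 CPM in KO, again without overlap, and the log2 fold change was -0.46 ± 0.07 (SE, edgeR adjusted p = 0.00074). In the tumor the WT libraries had 119, 118 and 121 CPM and the KO libraries 75.7, 86.3 and 83.0 CPM, so that each KO library was lower. The log2 fold change there was -0.55 ± 0.07 (SE, edgeR adjusted p = 0.000694).

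**Figure D3:**
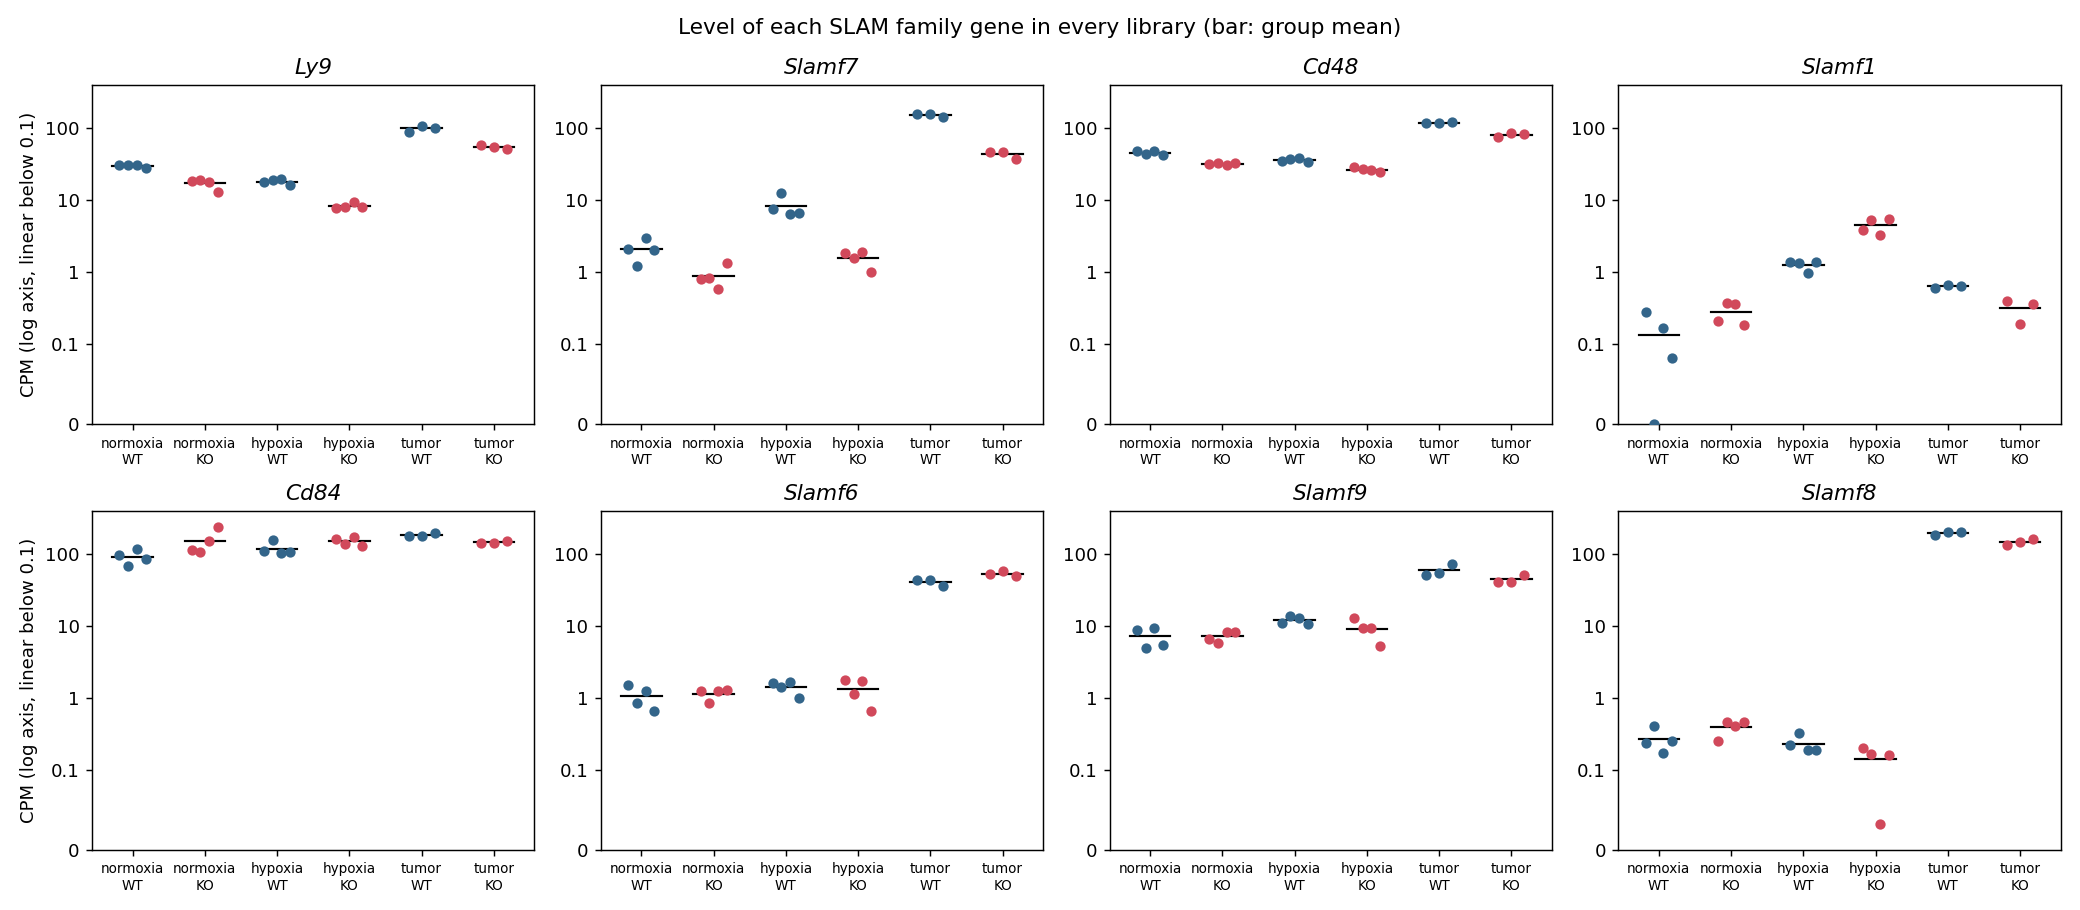
CPM of each gene in every library (log axis, linear below 0.1), with blue points for WT, red points for KO and a bar at the group mean. The Ly9 and Cd48 points of the KO lie below those of the WT in every experiment, and Slamf6 and Slamf8 are high in the tumor groups alone.

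Slamf1, a self-binding receptor of lymphocytes and activated macrophages, was higher in the KO in hypoxia. It stood at 1.37, 1.35, 0.966 and 1.38 CPM in WT and at 3.8, 5.24, 3.3 and 5.56 CPM in KO. The groups did not overlap, and the log2 fold change was 1.82 ± 0.2 (SE, edgeR adjusted p = 7.06e-05), a 3.53-fold difference. Markers of other granulocytes differed between the same libraries: 8 of 8 mast cell and basophil markers were called higher in the KO (summed level 739 to 1070 CPM against 476 to 737), as were 6 of 6 eosinophil markers (1920 to 3460 against 996 to 1610) and 8 of 9 neutrophil markers (48900 to 59600 against 23700 to 32000). The T and natural killer cell sum was 26.1 to 35.5 CPM in the KO and 14.7 to 21.9 in WT. Most of that sum was Nkg7 (24.7 ± 4.01 against 11.9 ± 2.17 CPM, SD, n = 4). Only 4 of the 13 markers had enough reads to be tested, and 2 were called higher, Cd3d and Nkg7. The B and plasma cell sum was 111 to 180 CPM in the KO and 67.7 to 80.1 in WT. Other sums were lower in the KO: the macrophage sum was 670 to 1130 CPM against 1130 to 1520, with Cd68 called lower and 0 of 8 higher, and the dendritic cell sum 101 to 235 against 204 to 310, with Itgax called lower (39.9 ± 10.7 against 73.3 ± 9.31 CPM, SD, n = 4) and Clec9a higher. Their part in the SLAM differences was not tested. In normoxia 7 of 7 mast cell and basophil, 3 of 4 eosinophil and 7 of 9 neutrophil markers tested were also called higher in the KO. So were 3 of 5 B and plasma cell markers tested (Igkc, Ighm and Jchain) and 2 of 6 dendritic cell markers tested (H2-Aa and Ciita). Of 8 macrophage markers 3 were called higher (C1qa, C1qb and C1qc), but the macrophage sum was not higher. It was 811 to 1000 CPM in the normoxia KO and 867 to 1140 in WT.

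In normoxia Slamf1 had 0 to 7 reads in the WT libraries and 4 to 9 in the KO libraries. The library with 0 reads, WT replicate 2, allows a level of up to 0.123 CPM (3 counts, counting error only). In the tumor Slamf1 stood at 0.604, 0.673 and 0.652 CPM in WT and at 0.392, 0.189 and 0.361 CPM in KO. The groups were separate but the gene was not called (log2 fold change -1.02 ± 0.44, SE, edgeR adjusted p = 0.215), with 4 to 9 reads in each KO library. The KO effect on Slamf1 differed between the tumor and hypoxia by -2.88 ± 0.5 on the log2 scale (SE, edgeR adjusted p = 0.000552). This was the single member of 8 called in that test, in which 5.07% of 16048 genes were called lower and 3.06% higher.

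Cd84, a self-binding receptor of myeloid cells, mast cells and platelets, was lower in the KO in the tumor and not called in the cultures. The tumor WT libraries had 178, 177 and 196 CPM and the KO libraries 140, 144 and 150 CPM. They did not overlap, with a log2 fold change of -0.34 ± 0.07 (SE, edgeR adjusted p = 0.0125). The call was lost without KO replicate 1 or KO replicate 2 (edgeR adjusted p = 0.076 and 0.0757). In normoxia Cd84 stood at 97.6, 67.1, 119 and 85.1 CPM in WT and at 115, 106, 152 and 238 CPM in KO. The groups overlapped and KO replicate 4 was the highest library, with a log2 fold change of 0.73 ± 0.24 (SE, edgeR adjusted p = 0.0715). Without KO replicate 4 and WT replicate 3, it was called higher at 0.57 (edgeR adjusted p = 0.0436), while Slamf7, Ly9 and Cd48 stayed called at -1.25, -0.71 and -0.5. In hypoxia it stood at 111, 156, 102 and 106 CPM in WT and at 164, 138, 172 and 129 CPM in KO, an overlapping pair of groups with a log2 fold change of 0.34 ± 0.14 (SE, edgeR adjusted p = 0.0722).

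Slamf6, a self-binding receptor best known from T and natural killer cells, was the single member called higher in the tumor KO. The WT libraries had 43.7, 44.1 and 36.2 CPM and the KO libraries 53.0, 57.6 and 48.7 CPM. The groups did not overlap, and the log2 fold change was 0.36 ± 0.1 (SE, edgeR adjusted p = 0.0466). This call held in 1 of 6 fits that left out 1 library, the one without KO replicate 3. Its adjusted p rose to 0.235 (edgeR) without KO replicate 2, and was 0.0518 with the size factors of DESeq2. In the cultures Slamf6 stayed at 0.65 to 1.77 CPM, and its log2 fold changes were 0.11 ± 0.28 in normoxia (SE, edgeR adjusted p = 0.817) and -0.11 ± 0.28 in hypoxia (SE, edgeR adjusted p = 0.789).

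T cell markers moved with the tumor genotype. Of 13 markers on the T and natural killer cell list, 6 were called lower in the KO and 0 higher. Those 6 were Cd3e, Cd3g, Cd4, Trac, Lck and Gzmb. The natural killer cell markers Ncr1 and Klrb1c were not lower, at 0.0724 to 0.257 and 0.403 to 0.449 CPM in WT. In KO they stood at 0.464 to 0.566 and 0.425 to 0.567 CPM, on at most 14 reads per library. The other markers on the list had lower means in the KO. The summed level of the list was 49.1 to 100 CPM in WT and 21.9 to 31.3 CPM in KO, and each of the 13 had reads in both groups. Of the 8 macrophage markers 0 were called in either direction (1 at an unadjusted p under 0.05), with sums of 6750 to 8260 CPM in WT and 6450 to 7800 in KO. Of the 7 dendritic cell markers tested Flt3, H2-Aa and Ciita were called higher in the KO, as were 2 of 5 neutrophil markers tested. The part of these differences in the SLAM values was not tested.

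Slamf8, the short-tailed receptor of macrophages, stood at 183, 202 and 201 CPM in the tumor WT libraries and at 133, 146 and 163 CPM in the KO libraries. No KO library reached the WT range, and the log2 fold change was -0.41 ± 0.08 (SE, edgeR adjusted p = 0.012). That call was lost without KO replicate 1, KO replicate 2 or WT replicate 2, with edgeR adjusted p up to 0.076. In the cultures Slamf8 had 1 to 11 reads per library.

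Slamf9, its short-tailed relative, stood at 51.4, 53.9 and 72.3 CPM in the tumor WT libraries and at 40.4, 41.0 and 51.8 CPM in the KO libraries. KO replicate 3 lay just above WT replicate 1, and the gene was not called by edgeR (log2 fold change -0.42 ± 0.14, SE, adjusted p = 0.131), though DESeq2 called it (adjusted p = 0.0282). In normoxia its means were 7.18 ± 2.29 CPM in WT and 7.21 ± 1.23 in KO (SD, n = 4). In hypoxia they were 12.1 ± 1.53 and 9.21 ± 3.12 (SD, n = 4), with overlapping groups and a log2 fold change of -0.4 ± 0.21 (SE, edgeR adjusted p = 0.162).

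Hypoxia was compared with normoxia in each genotype over the 16 culture libraries. Oxygen cannot be told apart here from the length of the culture or from the separate table. In WT, 3 of 8 members were called higher and 2 lower, beside 26.6% of all 15293 genes called higher and 25.0% lower. In KO, 2 were called higher and 2 lower, beside 26.1% and 25.6%.

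Slamf1 is among the members called higher in both genotypes, but it entered this test through its hypoxia counts, so its reads are given in place of a fold: 0 to 7 per library in normoxia WT, 31 to 44 in hypoxia WT, 4 to 9 in normoxia KO and 101 to 171 in hypoxia KO. Slamf7 rose by 2.09 ± 0.27 in WT (SE, edgeR adjusted p = 4.02e-06) and by 0.96 ± 0.33 in KO (SE, edgeR adjusted p = 0.0223), the latter called in 3 of 8 fits that left out 1 library. Leaving out KO replicate 1, 2 or 3 of normoxia, or KO replicate 1 or 3 of hypoxia, ended that call, with adjusted p up to 0.0727 in edgeR. Slamf9 rose by 0.87 ± 0.24 in WT (SE, edgeR adjusted p = 0.0055), and its change of 0.47 ± 0.24 in KO was not called (edgeR adjusted p = 0.113).

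Ly9 fell in hypoxia in both genotypes, with log2 fold changes of -0.62 ± 0.1 in WT (SE, edgeR adjusted p = 7.64e-05) and -0.91 ± 0.11 in KO (SE, edgeR adjusted p = 1.84e-06). Cd48 fell slightly in WT (-0.22 ± 0.07, SE, edgeR adjusted p = 0.0198), a call lost without normoxia replicate 1 or hypoxia replicate 4 of the WT. Slamf8 is the other member counted as lower in KO, with 6 to 11 reads per library in normoxia and 1 to 6 in hypoxia. It was too low to be tested in either culture experiment alone, and nothing is read from this call. Mast cell, basophil and eosinophil markers stood far higher in the hypoxia cultures: the mast cell and basophil sum was 44.5 to 64.2 CPM in normoxia WT and 476 to 737 in hypoxia WT, and the eosinophil sum 22.7 to 41.5 and 996 to 1610. The part of these markers in the SLAM values was not tested.

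The KO effect was then compared between hypoxia and normoxia. No member was called (0 of 8 with edgeR and 0 with DESeq2), and 0.19% of all genes were called higher and 0.288% lower. At an unadjusted p under 0.05 there were 2 members, Slamf7 (-1.13 ± 0.43, SE, edgeR adjusted p = 0.425) and Slamf8, which had 1 to 11 reads per library. For Ly9 and Cd48 the differences were -0.29 ± 0.15 and 0.06 ± 0.11 on the log2 scale (SE).

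The WT tumor samples were compared with the WT hypoxia cultures on the common scale. Tissue, experiment and library set cannot be told apart in this comparison. Of the 8 members 7 were called higher in the tumor and 1 lower, where 40.1% of 16048 genes were called higher and 40.7% lower. Slamf8 had 6 to 10 reads per library in hypoxia WT, too few to be tested there alone, and 5451 to 6288 in tumor WT. It entered this comparison through the tumor libraries, so its fold is left out. Slamf6 was 30.7-fold higher, Slamf7 19.8-fold, Ly9 5.83-fold, Slamf9 5.17-fold, Cd48 3.47-fold and Cd84 1.64-fold. Slamf1 was 1.85-fold lower in the tumor (log2 fold change -0.88 ± 0.32, SE, edgeR adjusted p = 0.0131).

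Of the 8 macrophage markers 7 were called higher in the tumor than in hypoxia. Of the 9 T and natural killer cell markers tested 8 were called higher and Nkg7 lower. All 8 mast cell and basophil markers were called lower. In hypoxia WT Cd3g, Cd4, Trac, Zap70 and Klrb1c had at most 7 reads per library. In tumor WT Fcer1a, Ms4a2 and Prss34 had at most 1, 5 and 7. Markers nearly absent from a group entered through the other, so nothing is read from their calls. The part of these markers in the SLAM differences was not tested.

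The order of levels over the 6 groups was read on the common scale. Slamf7, Ly9, Cd48, Slamf9 and Slamf8 were highest in tumor WT and next in tumor KO, and those pairs of groups did not overlap on this scale. For Slamf9 they did overlap on the scale of the tumor experiment alone, so its tumor groups are not separated beyond the choice of scale. Below them, Ly9 followed in normoxia WT (28.4 ± 1.6 CPM, SD, n = 4), hypoxia WT (18.4 ± 1.53), normoxia KO (16.2 ± 2.52) and hypoxia KO (8.53 ± 0.783), and only hypoxia WT and normoxia KO overlapped among these neighbours. Cd48 followed in normoxia WT (43.2 ± 3.3 CPM, SD, n = 4), hypoxia WT (37.0 ± 2.0), normoxia KO (30.5 ± 1.11) and hypoxia KO (27.0 ± 1.9), the last 2 of which overlapped. Slamf7 ran from hypoxia WT (8.34 ± 2.76 CPM, SD, n = 4) to normoxia WT (1.96 ± 0.686), hypoxia KO (1.62 ± 0.419) and normoxia KO (0.845 ± 0.306), the last 3 overlapping one after another.

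Slamf6 was highest in tumor KO (55.8 ± 5.29 CPM, SD, n = 3), then tumor WT (44.5 ± 5.21), and its 4 culture groups overlapped between 1.0 and 1.44 CPM on average. For Slamf9 and Slamf8 the culture groups also overlapped with their neighbours. Slamf1 ran from hypoxia KO (4.56 ± 1.15 CPM, SD, n = 4) to hypoxia WT (1.28 ± 0.201) and tumor WT (0.693 ± 0.0387), with no overlap, while tumor KO, normoxia KO and normoxia WT overlapped at 0.329 CPM or less on average. Cd84 had the flattest order, from tumor WT (198 ± 9.35 CPM, SD, n = 3) to normoxia WT (86.8 ± 20.7, SD, n = 4), and apart from tumor WT each group overlapped with the next.

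For each member, 10348 genes were searched for the group pattern most like its own, by the root mean square distance between centred log2 levels over the 6 group means. The nearest genes were Zfp287 (0.245), Met and Mrpl52 for Ly9, Ckb (0.637), Spsb1 and Lgmn for Slamf7, and Sergef (0.114), Nmral1 and Tpi-rs11 for Cd48. For Slamf1 they were Alox15 (0.188), Tns1 and P2ry10. For Cd84 they were Pkp3 (0.065), Ltb4r1 and Carhsp1, and for Slamf6 H2-M3 (0.194), Abca1 and Ccdc102a. For Slamf9 they were Peak1 (0.0913), Tesk1 and Ift22, and for Slamf8 Oasl1 (0.287), Phf11d and Tgtp2. Slamf7 had the most distant nearest gene and Cd84 the closest. Distances were not scaled to the size of a pattern, so a flat pattern like that of Cd84 finds a close gene more easily. Slamf8 had 1 to 11 reads per culture library and Slamf1 0 to 9 per normoxia library, so their nearest genes rest partly on counts near 0.

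Partners and adaptors of the receptors were followed as a list of 24 genes. Cd244a, the receptor for CD48, stood at 45.1, 64.3, 35.6 and 45.3 CPM in hypoxia WT and at 17.2, 12.6, 14.7 and 9.98 CPM in hypoxia KO. The groups did not overlap, with a log2 fold change of -1.8 ± 0.2 (SE, edgeR adjusted p = 0.000106). In the tumor it stood at 62.0, 58.1 and 52.5 CPM in WT and at 23.1, 18.7 and 15.6 CPM in KO, separate again, with a log2 fold change of -1.59 ± 0.13 (SE, edgeR adjusted p = 2.79e-05). The normoxia groups overlapped at 3.39 to 15.7 CPM in WT and 2.98 to 7.93 in KO, and Cd244a was not called there (-0.76 ± 0.41, SE, edgeR adjusted p = 0.214).

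Cd2, which encodes the other receptor for CD48 and is also on the T cell list, was measured well in the tumor alone (4.81 to 9.53 CPM in WT and 1.87 to 4.13 in KO) and was not called (-1.17 ± 0.33, SE, edgeR adjusted p = 0.0736). The adaptor gene Sh2d1b1 fell in the hypoxia KO, from 54.1 ± 2.84 to 37.8 ± 2.89 CPM (SD, n = 4, log2 fold change -0.52, edgeR adjusted p = 0.000307), and was not called in normoxia (-0.25, edgeR adjusted p = 0.0945) or the tumor (0.19, edgeR adjusted p = 0.583). Sh2d1a had too few reads for a test in any experiment, at no more than 0.321 CPM where listed (hypoxia and tumor).

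Of the 21 listed genes tested in normoxia 0 were called with edgeR, with 6 at an unadjusted p under 0.05. In hypoxia 5 of 22 were called higher and 3 lower, where the shares over all genes were 17.4% and 17.6%, so these counts are no result about the list. Besides Cd244a and Sh2d1b1, Cybb rose by 0.63 ± 0.06 (SE, edgeR adjusted p = 2.42e-05), Prkcq (a T cell and mast cell kinase) by 1.08 ± 0.22 (SE, edgeR adjusted p = 0.00341) and Itgam by 0.3 ± 0.06 (SE, edgeR adjusted p = 0.00361), while Fcer1g, a signalling subunit of Fc receptors, fell to -0.37 ± 0.07 (SE, edgeR adjusted p = 0.00316). Beside 3.28% and 3.04% of all genes in the tumor, 1 of 22 was called higher there, Cybb (0.31 ± 0.08, SE, edgeR adjusted p = 0.0415), and 3 lower: Cd244a, Itgam (-0.41 ± 0.07, SE, edgeR adjusted p = 0.00373) and the phosphatase gene Ptpn11 (-0.36 ± 0.09, SE, edgeR adjusted p = 0.0304). The list medians were 0.1, 0.08 and 0.06 in normoxia, hypoxia and the tumor.

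The other genes around the cluster, up to 500 kb beyond its ends, numbered 72, with Cd244a, the receptor gene described above, counted among them. Of those tested, 10 of 41 (24.4%) were called in normoxia beside 11.3% of all genes, 25 of 44 (56.8%) in hypoxia beside 34.9%, and 16 of 43 (37.2%) in the tumor beside 6.32%. In normoxia 5 were higher and 5 lower, in hypoxia 7 and 18, and in the tumor 6 and 10. The medians stayed near 0, at -0.02, -0.04 and -0.08.

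Of the 37 neighbours tested in all 3 experiments, 3 were called in the same direction in each, all lower in the KO. F11r, which encodes a junctional adhesion molecule, had log2 fold changes of -0.76, -0.67 and -1.95 (normoxia, hypoxia and tumor). Cfap45, a cilium gene, had -1.42, -0.61 and -2.56. Dusp23, a phosphatase gene, had -1.53, -1.44 and -1.71.

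Itln1, a lectin gene left of the cluster, was named after its values were seen. It stood at 0 to 0.157 CPM in the WT and at 0.813 to 1.9 CPM in the KO libraries of hypoxia, and at 0 to 0.0336 and 1.03 to 2.44 CPM in the tumor. In normoxia it was not tested, with 0 to 0.0397 CPM in WT and 0.336 to 0.938 in KO. No KO library overlapped a WT library in any of the experiments.

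**Figure D4:**
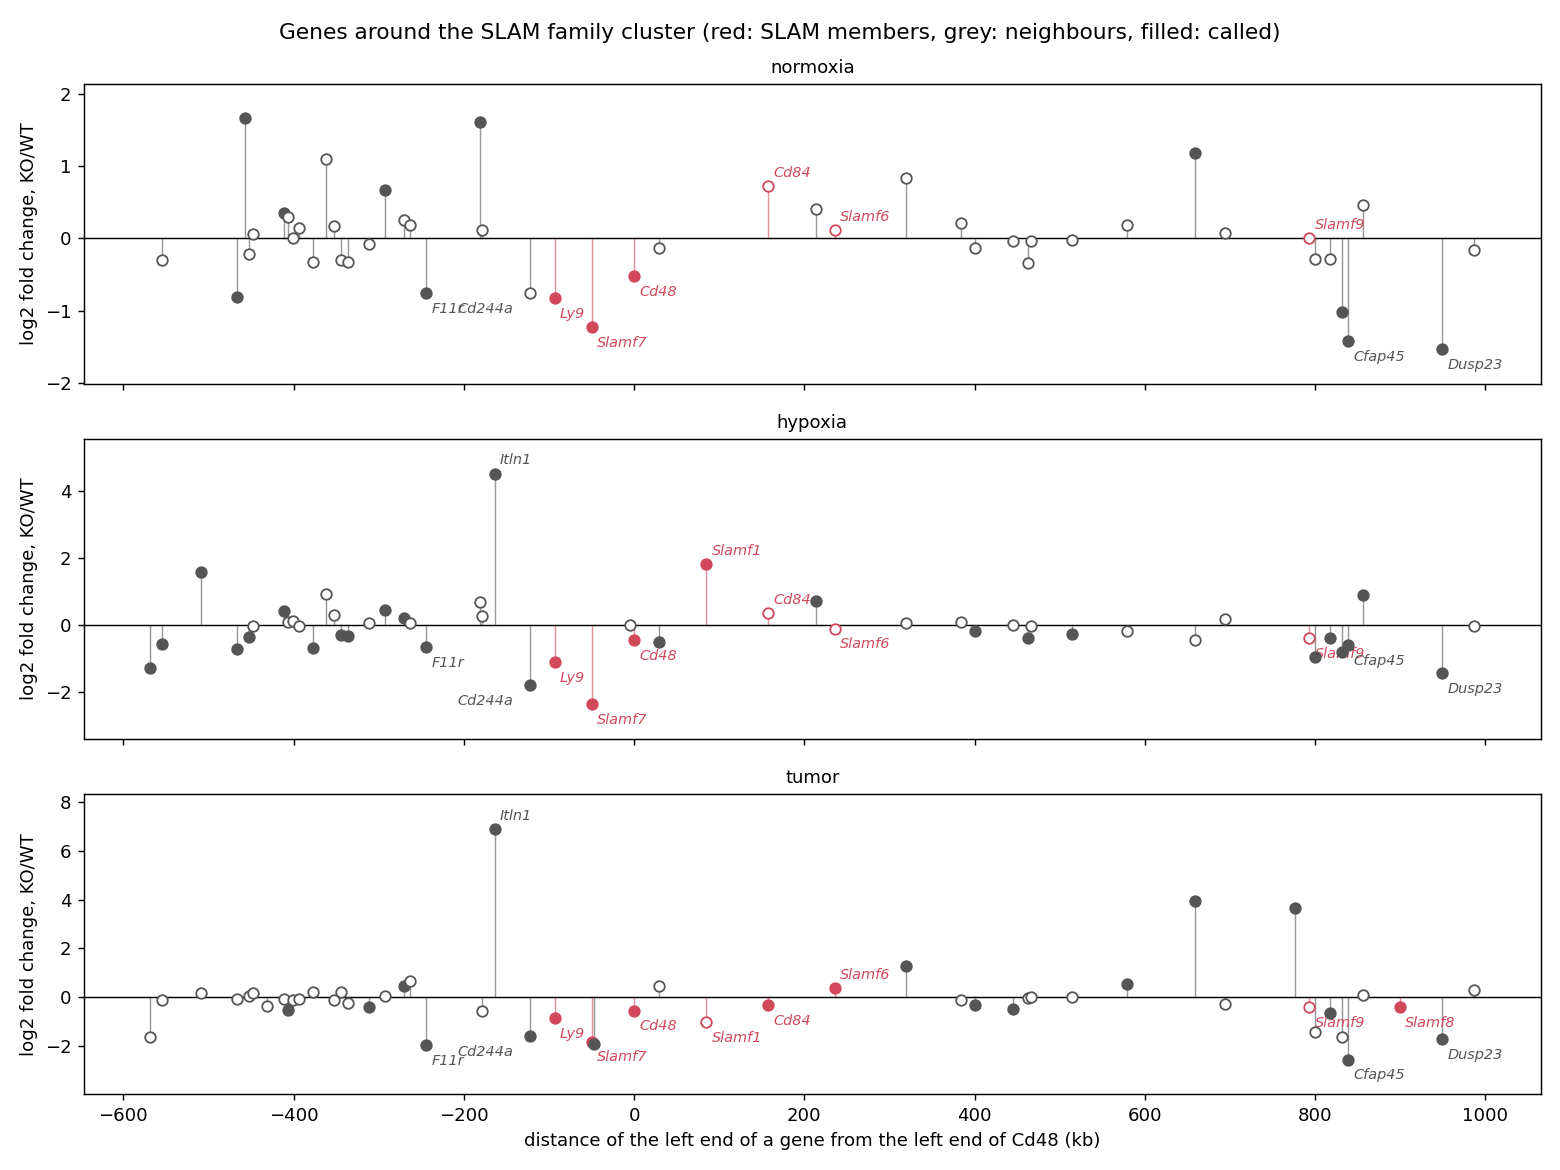
Log2 fold change of KO against WT for the tested genes around the cluster, by distance in kb of the left end of a gene from that of Cd48, in normoxia, hypoxia and tumor (red for the 8 genes, grey for neighbours, filled if called). Called genes of both directions lie between genes that were not called, and Ly9, Slamf7 and Cd48, next to each other, are below 0 in each panel.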

How the data were processed

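RNA of 22 mouse libraries was sequenced (Takara SMART-Seq, per the labels' protocols). The authors deposited raw read counts per gene, and the submitters' processing notes name Subread, featureCounts and GRCm38.p6 without versions. In both culture tables the KO libraries bear a code and were taken as KO because the rest are named WT. Identifiers were named with GENCODE M21.

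Each experiment was fitted alone with edgeR 4.0.16 in R 4.3.3 (filterByExpr, TMM scaling, robust quasi-likelihood test, Benjamini-Hochberg adjustment over all genes tested, threshold 0.05). Oxygen and tumor comparisons used joint fits. Fold changes come from these fits and the SE from the test statistic. The fits were tested on simulated data.

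The labels call the normoxia samples independent biological replicates and say nothing of the others, so there p-values measure the spread between libraries, which may be technical. Libraries of a group differed by more than counting error. Alternatives were DESeq2 1.42.0, other scaling and filters, a replicate block, and leaving out libraries. Named genes were the 8 members, Vsir, called genes of the signalling list, neighbours called in all 3 experiments, and the 3 nearest patterns per member. Members and lists were chosen with earlier results of these data known.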

Additional observations from a re-analysis of the deposited data

Results flagged for a closer look

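In groups of 4 libraries, 3 levels lay apart from the other 3 by Dixon's test, out of 32 groups examined, and chance alone picks out about 1 group in 20. Slamf1 in hypoxia WT was 0.966 CPM in replicate 3, against 1.35 to 1.38 in the others. Slamf6 in normoxia KO was 0.839 CPM in replicate 2, against 1.23 to 1.28. Ly9 in hypoxia KO was 9.58 CPM in replicate 3, against 7.87 to 8.14, and was still below each WT library. The Slamf1 effect of the knockout differed between the tumor and hypoxia by -2.88 on the log2 scale (edgeR adjusted p = 0.000552), from 1.82 in hypoxia to -1.02 in the tumor, where it was not called.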

How the results depend on the processing

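Of 31 called member results, 409 of 431 alternative values kept their direction and their call, 22 lost the call and 0 reversed. Of 30 results that were not called, 16 of 536 alternative values became called and 18 changed sign. The number of members called in the tumor was 3 without KO replicate 1 or KO replicate 2, and ranged from 3 to 7 when 1 library was left out. In the other comparisons that range was 2 to 4 in normoxia, 4 to 5 in hypoxia, 4 to 6 and 3 to 5 for oxygen in WT and KO, 0 for the difference of KO effects by oxygen, 8 for tumor against hypoxia and 1 for the difference of KO effects between them. With no count filter 6 members were called in hypoxia, Cd84 (0.34, edgeR adjusted p = 0.000287) and Slamf9 (-0.41, edgeR adjusted p = 0.00902) being added. Results that were not called and changed sign with 1 library left out were Slamf6 in normoxia (range -0.07 to 0.32) and hypoxia (-0.28 to 0.11), Slamf9 in normoxia (-0.14 to 0.16), Slamf8 for oxygen in WT (-0.3 to 0.17), Cd84 for oxygen in KO (-0.06 to 0.4), Slamf6 for the oxygen difference (-0.44 to 0.01), and, for the tumor minus hypoxia difference, Slamf8 (-0.08 to 0.46) and Slamf9 (-0.25 to 0.15). With library size alone Slamf9 became -0.09 in normoxia and 0.03 in that difference, and with no filter -0.0 in normoxia. The cause was not tested. Library size alone moved the median of all genes by -0.14 for oxygen in WT and by -0.11 for tumor against hypoxia. With it, the share of called genes that were higher went from 63.1% to 43.3% in normoxia, from 51.6% to 36.3% and 50.6% to 40.3% for oxygen in WT and KO, from 39.7% to 50% for the oxygen difference and from 37.6% to 53.1% for the tumor minus hypoxia difference. Counts over all genes moved by more than 1.5 times in 3 comparisons. In normoxia 1577 became 2388 with DESeq2, 2881 without the 2 libraries that stood apart, and 469 to 723 without KO replicate 3 or WT replicate 1, 2 or 4. In the tumor 908 became 1363 with no filter and 444 to 515 without KO replicate 1 or 2 or WT replicate 2. For the oxygen difference 73 became 195 with DESeq2, 126 without the 2 libraries and 40 to 48 in 8 fits that left out 1 library. Same-numbered KO and WT libraries deviated together with correlations of -0.0571 to 0.372 in normoxia, -0.159 to 0.0189 in hypoxia and 0.0797 to 0.218 in the tumor, and each library correlated best with its own number in the tumor but not in the cultures. With the replicate number as a block, 7 members were called in the tumor, where Slamf9 was added (-0.41, edgeR adjusted p = 0.000263) and 2266 genes in all, and 40 genes for the oxygen difference. The number of members called stayed at 3 in normoxia and 4 in hypoxia under that replicate block. At 1 to 11 reads per library, Slamf8 in the cultures was at the limit of this depth.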
